A study of Sus scrofa with 2 samples.

Results

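The ATF and CREB factors are basic leucine zipper transcription factors, and 9 of their genes were examined for ZBTB16 binding: ATF1, ATF2, ATF3, ATF4, ATF5, ATF6, ATF7, CREB1 and CREM. The genes were chosen by name, and every peak that the authors assigned to one of them was used, whatever its class. They stand among 16509 protein-coding pig genes with a symbol. ZBTB16 (PLZF) is a zinc finger factor of undifferentiated spermatogonia. Its sites were mapped by CUT&Tag, in which an antibody brings a transposase to a chromatin protein and the released fragments are sequenced. Both libraries, replicate 1 and replicate 2, came from wild-type (WT) immature spermatogonia of pig testis, with 100000 cells each, and form 1 group under 1 condition. The labels name no age, animal or culture for a library, so the spread between them may be technical. An IgG control was not analysed here, and peaks carry no measure of expression, so the labelled cell type could not be checked against its markers.

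ATF and CREB factors bind DNA as dimers through a basic region next to the leucine zipper, many of them at the cAMP response element. CREB1, CREM and ATF1 form a group that protein kinase A phosphorylates in response to cAMP, and CREM is known from mouse testis as an activator of spermatid genes. ATF2 and ATF7 are close relatives that stress-activated kinases phosphorylate and that pair with JUN. ATF3, ATF4 and ATF5 respond to stress, and ATF4 and ATF5 are translated when eIF2 is phosphorylated, while ATF6 is a membrane protein of the endoplasmic reticulum that is cut to free its transcription factor domain.

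Peaks lay at the starts of nearly all of these genes. The authors' promoter class held peaks that reach, or lie within 3 kb before, an annotated transcription start site (TSS). In that class, 7 of the 9 genes had a peak in both libraries, against 20.8% of all genes. These were ATF1, ATF2, ATF3, ATF5, ATF7, CREB1 and CREM. Replicate 1 alone gave 8 of 9 against 32.8% of all genes, the added gene being ATF4, and replicate 2 alone gave 7 of 9 against 24.9%. With peaks of any class, 8 of 9 genes had one in both libraries, against 28.2% of all genes. ATF6 was the exception and had no assigned peak in either library, as had 49.3% of all genes. The members were listed with results of these data known, so the counts are descriptions without a test. Counting only peaks above the median fold of their own list, 3 of 9 remained (ATF2, ATF7 and CREB1), against 11.6% of all genes.

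In height the peaks did not stand together. The authors' fold enrichment is a ratio over local background. It fitted the fragment count at a peak's summit over that background, with 1 added to each. The control behind the background is not given. Among the 3439 genes with a promoter peak in both libraries, ordered by the lower of the 2 folds, ATF7 ranked 11, ATF2 640, CREB1 1340, CREM 2082, ATF5 2114, ATF3 3281 and ATF1 3393. The median lower fold was 4.84 for the 7 members and 5.13 for all 3439 genes, and 3 of the 7 reached the median of all genes. Within a library, the 7 members had a median promoter fold of 6.18 in replicate 1, against 5.33 over all promoter peaks. In replicate 2 it was 4.84, against 5.25, so the side on which they fell differed between the libraries. The sets are unlike, since all promoter peaks include those of genes with one in a single library, whereas the 7 members had one in both. Exact Poisson intervals at 95% on the summit fragments, with the background held fixed, overlapped between every gene and the next in order of fold in each library. Overlap of intervals does not show that 2 folds are alike, and such intervals leave out all error but counting error.

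**Figure D1:**
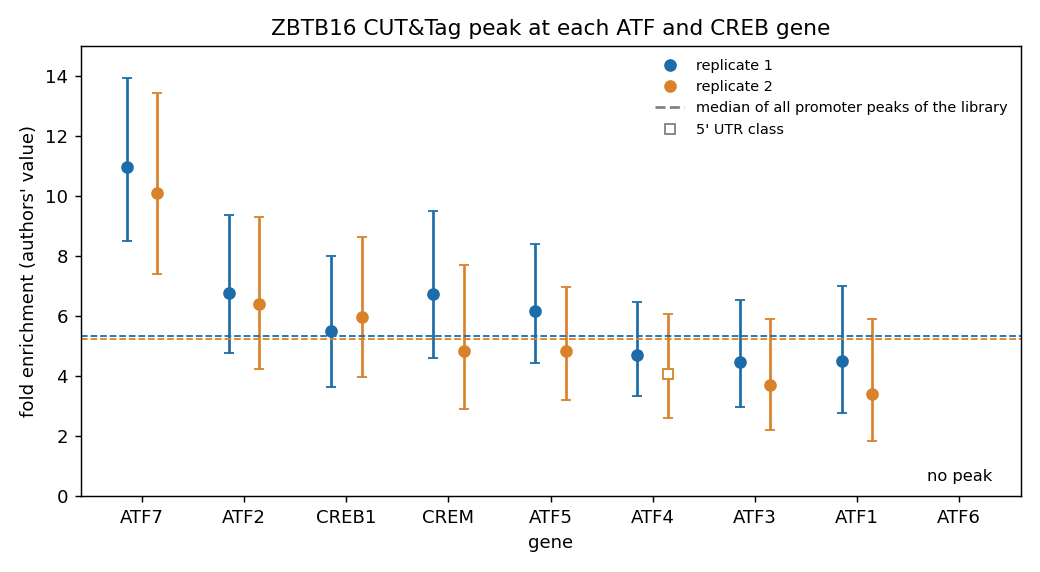
Fold enrichment (authors' value, linear axis from 0) of the peak at the start of each ATF and CREB gene, in replicate 1 (blue) and replicate 2 (orange). Bars are 95% Poisson intervals of the summit fragments over a fixed background. Dashed lines are the median of all promoter peaks of each library (5.33 and 5.25). The open square is the ATF4 peak of the 5′ UTR class. ATF7, ATF2 and CREB1 stood above both lines in both libraries, and ATF6 had no peak.

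ATF7 carried the strongest peak of the 9 genes. It lies on the minus strand of chromosome 5 of Sscrofa11.1, and its peak covered 18837861 to 18838802 in replicate 1 and 18838097 to 18838689 in replicate 2, both across the TSS at 18838419. The summit held 65 fragments in replicate 1 (50.2 to 82.8) over a background of 5.02, and 45 in replicate 2 (32.8 to 60.2) over 3.56. The fold was 10.96 in replicate 1 and 10.1 in replicate 2, at rank 21 of 5415 genes and rank 17 of 4115. Summits lay 35 and 139 bp downstream of the TSS, 104 bp apart. The whole replicate 2 peak lay inside the replicate 1 peak. No other peak lay within the 112 kb of the gene in either library. By distance between the 2 folds, the 3 genes most like ATF7 among 3438 others were MMS19 (11.09-fold in replicate 1 and 10.3-fold in replicate 2), EVI5L (10.9-fold and 10.3-fold) and TDG (11.2-fold and 9.88-fold).

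ATF2, the nearest relative of ATF7 among the members, came second in order of fold in each library. Its peak spanned the TSS at 81076548 on the minus strand of chromosome 15, from 81076067 to 81077091 in replicate 1 and from 81076242 to 81077077 in replicate 2. Replicate 1 had 35 fragments (24.4 to 48.7) and 6.78-fold, and replicate 2 had 25 fragments (16.2 to 36.9) and 6.39-fold. These folds were at or above those of 80.4% and 78.3% of genes with a promoter peak. The summits were 311 bp apart, that of replicate 1 sitting 83 bp inside the gene and that of replicate 2 sitting 228 bp before it. In replicate 1 the fold interval of ATF7 (8.50 to 13.9) overlapped that of ATF2 (4.78 to 9.36), and in replicate 2 the intervals (7.42 to 13.4 for ATF7, 4.22 to 9.32 for ATF2) also overlapped.

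**Figure D2:**
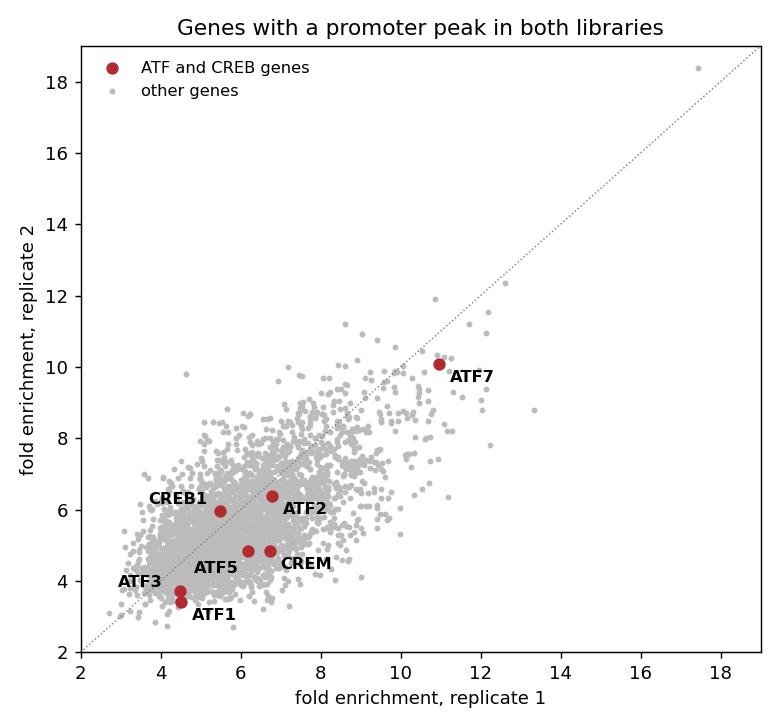
Fold enrichment of the highest promoter peak of each gene in replicate 1 (x axis) and replicate 2 (y axis), for the 3439 genes with one in both libraries, with the 7 ATF and CREB genes in red. The dotted line marks equal folds; ATF7 lies in the upper tail, ATF3 and ATF1 at the lower edge and the other members within the bulk.

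The cAMP-responsive genes CREB1, CREM and ATF1 each carried more than a single peak. CREB1 is transcribed from 110705548 on the plus strand of chromosome 15. Its promoter peak ran from 110704591 to 110705811 in replicate 1, with 25 fragments and 5.49-fold, and from 110705016 to 110705772 in replicate 2, with 26 fragments and 5.96-fold. CREB1 was the 1 member whose promoter fold was higher in replicate 2. Its fragment ratio of replicate 1 to replicate 2 was 0.962 (exact binomial interval 0.533 to 1.73), against a median of 1.31 over 3433 overlapping promoter pairs. In both libraries the peak lay wholly within a neighbour, LOC102167165, which overlaps the CREB1 start and had no assigned peak. Each peak was given to 1 gene.

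A distal peak was also assigned to CREB1 in both libraries. It lay at 110549377 to 110549697 in replicate 1, with 12 fragments (6.20 to 21.0) and 5.37-fold, and at 110549212 to 110549588 in replicate 2, with 13 fragments (6.92 to 22.2) and 6.14-fold. Its nearest edge was 156 kb upstream of the CREB1 TSS, and the peaks overlapped by 212 bp. Of the 1228 distal intergenic peaks of replicate 1, 25.2% overlapped a distal peak of replicate 2. The fold was at or above that of 79.1% of distal peaks in replicate 1 and 90.9% in replicate 2, with backgrounds of 1.42 and 1.28 fragments. The table places it between KLF7, whose nearer edge is 169 kb away, and LOC102167165, at 147 kb from the replicate 1 peak. The assignment to CREB1 rests on distance alone.

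CREM had a promoter peak in both libraries and a further, internal peak in replicate 1 only. The promoter peak began at 57829150 on chromosome 10 in both libraries and spanned the TSS at 57829523 on the plus strand. It held 30 fragments (20.2 to 42.8) at 6.72-fold in replicate 1, and 16 fragments (9.15 to 26.0) at 4.84-fold in replicate 2. The fragment ratio of replicate 1 to replicate 2 was 1.88 (0.99 to 3.68), at or above that of 93.5% of overlapping promoter pairs, and its interval held their median of 1.31. CUL2, a cullin scaffold of ubiquitin ligases, has its nearer edge 135 bp before CREM begins, and the peak covered that gap. Whether this edge is the start or the end of CUL2 was not tested. A promoter peak assigned to CUL2 lay 29.7 kb from CREM in replicate 1 (10 fragments, 4.17-fold), and none was assigned to it in replicate 2. The internal peak, at 57881937 to 57882552, was of the 5′ UTR class and began 201 bp downstream of a second annotated CREM start, 52.2 kb from the first. It rested on 18 fragments and had 5.52-fold. An internal CREM promoter is known in rodents to give the short repressor ICER, and whether this start is its pig counterpart was not tested.

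ATF1 differed in the shape of its signal. Its TSS, at 16619130 on the plus strand of chromosome 5, lay in a gap between 2 peaks in both libraries. The upstream peak ran from 16618289 to 16618864 in replicate 1 (18 fragments, 4.51-fold) and from 16618525 to 16618951 in replicate 2 (11 fragments, 3.42-fold). The downstream peak, in the first intron, ran from 16619356 to 16619658 in replicate 1 (15 fragments, 3.78-fold) and from 16619321 to 16619995 in replicate 2 (15 fragments, 4.71-fold). The gap measured 491 bp in replicate 1 and 369 bp in replicate 2. Both pairs of summits lay close together, 54 bp apart upstream and 52 bp apart downstream. Only 4 of all genes (0.0242%) had peaks within 1 kb on both sides of an uncovered TSS in both libraries, and they were ATF1, PPFIA3, PRADC1 and PTMA. This count was made after the ATF1 peaks had been seen.

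The promoter fold of ATF1 was the lowest of the members in replicate 2 and next to the lowest, ATF3, in replicate 1. It was at or above that of 23.5% of genes in replicate 1 and 0.996% in replicate 2. A further peak assigned to ATF1 in replicate 2 only (16544118 to 16544438, 9 fragments, 4.75-fold) lay 74.7 kb upstream, in an exon of the neighbour DIP2B. ATF1, CREB1 and CREM were the 3 members with at least 2 assigned peaks in a library, against 6.09% of all genes.

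**Figure D3:**
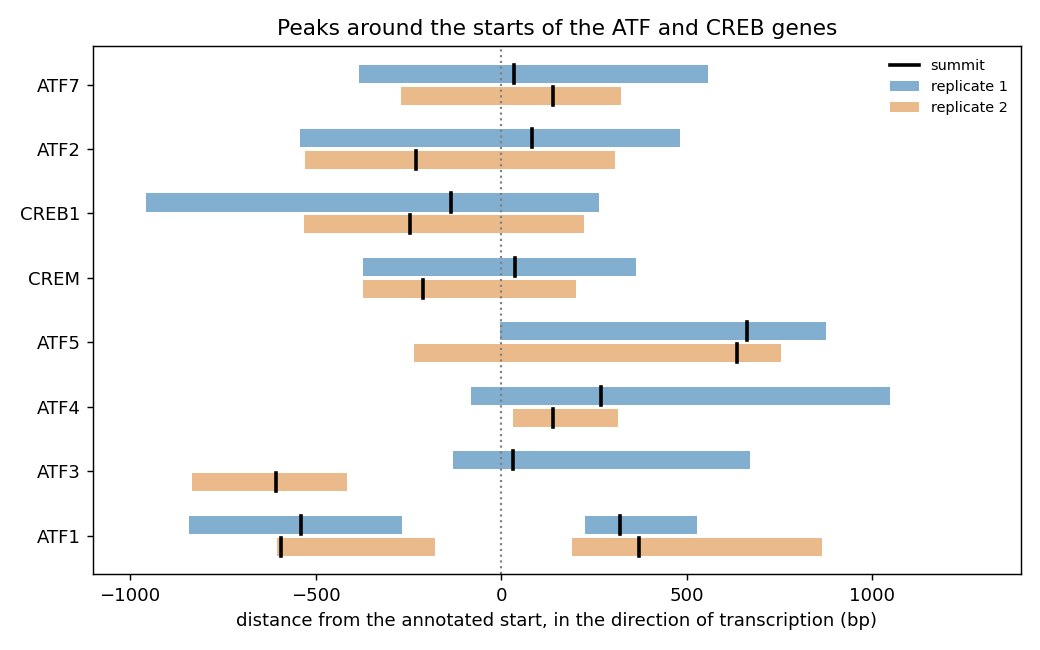
Peaks (bars) and their summits (black marks) around the annotated start of each ATF and CREB gene, as distance in bp in the direction of transcription, with replicate 1 above replicate 2 in each row. Peaks lie across the start at ATF7, ATF2, CREB1, CREM and ATF5, on both sides of it at ATF1, and apart from each other at ATF3; distances are from the start used for the replicate 1 promoter peak, and peaks over 5 kb away are not drawn.

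The stress-responsive genes ATF3, ATF4 and ATF5 differed in where the peak lay. ATF5, on the plus strand of chromosome 6, had its summit well inside the gene, 663 bp downstream of the TSS at 54945381 in replicate 1 and 635 bp in replicate 2. Its peak covered 54945378 to 54946258 in replicate 1, with 39 fragments (27.7 to 53.3) and 6.18-fold, and 54945147 to 54946136 in replicate 2, with 26 fragments (17.0 to 38.1) and 4.82-fold. The summits were only 28 bp apart, the least of all members. In the gene table, the upper coordinates of NUP62, a nuclear pore protein, and IL4I1 are 54945705 and 54945840, inside the ATF5 peak. Neither had an assigned peak. The table gives no strand, so whether these coordinates are starts or ends of the 2 genes was not tested.

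ATF4, the effector of the integrated stress response, fell outside the count of promoter peaks in both libraries by class only. Its replicate 1 peak spanned the TSS at 8745752 on the minus strand of chromosome 5 (8744705 to 8745833, 36 fragments, 4.70-fold). The replicate 2 peak (8745438 to 8745721, 22 fragments, 4.07-fold) began 31 bp downstream and was listed as 5′ UTR, yet lay wholly within the replicate 1 peak. The summits were 130 bp apart. With promoter and 5′ UTR classes joined, 8 of 9 members had a peak in both libraries, against 24.0% of all genes.

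At ATF3, a factor that cells induce under stress, both libraries had a promoter peak, but not the same one. The replicate 1 peak spanned a start at 130785506 on the minus strand of chromosome 9 (130784836 to 130785635, 25 fragments, 4.48-fold). The replicate 2 peak lay upstream of it (130785920 to 130786339, 16 fragments, 3.72-fold), 337 bp from a second listed start that is 77 bp from the first. A gap of 284 bp separated the peaks, and their summits were 639 bp apart. The median was 91 bp over promoter pairs that overlap, an unlike set, since overlap itself keeps summits close. Counting only promoter peaks that overlap by at least 1 bp, 6 of 9 members remained, against 20.6% of all genes. The replicate 2 peak lay at or above only 3.57% of genes with a promoter peak. The table's ATF3 gene reaches 44.2 kb upstream of the replicate 1 start, and no peak of either library other than the 2 just described lay in that stretch.

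ATF6 occupies 215 kb of chromosome 4, from 88591279 to 88806156, and no peak of any gene fell inside it in either library. The nearest peak outside was 11.9 kb beyond its upper end in replicate 1, at the promoter of DUSP12 (4.81-fold, 12 fragments), and 159 kb away in replicate 2. A missing peak means that none passed the authors' threshold at this depth, whose lowest −log10 q-value was 1.31 in both lists, and does not show absence of binding.

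The members' promoter peaks had high local backgrounds, as recovered from fold and p-value. A higher background lowers a fold for the same number of fragments. The control behind this background is not given, and whether it belongs to the region or to the peak itself was not tested. The background under the promoter peak was above the median of all promoter peaks at 8 of 8 members in replicate 1 (median of all 2.67 fragments) and at 7 of 7 in replicate 2 (2.18). It was highest at ATF4 in replicate 1, with 6.87 fragments, and at ATF5 in replicate 2, with 4.60 fragments. The ATF4 peak of the 5′ UTR class in replicate 2 had 4.65. By fragments over the lowest background of the library instead, ATF5 moved to percentile 93.4 of genes in replicate 1 and 88.1 in replicate 2, against percentiles 69.2 and 34.4 by the authors' fold. ATF4 moved to percentile 91.4 in replicate 1, against 29.6 by fold. ATF7 stayed high, at percentile 99.3 in replicate 1 and 98.6 in replicate 2. ATF3 came to percentiles 75.2 and 54.5, against 22.4 and 3.57 by fold, and CREB1 to 75.2 and 88.1, against 53.3 and 69.4. CREM came to 84.7 and 54.5, against 79.5 and 35.4, and ATF2 to 90.3 and 86.6, against 80.4 and 78.3. ATF1 was the lowest member in both libraries by this measure, at 48.7 and 17.5, against 23.5 and 0.996 by fold.

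**Figure D4:**
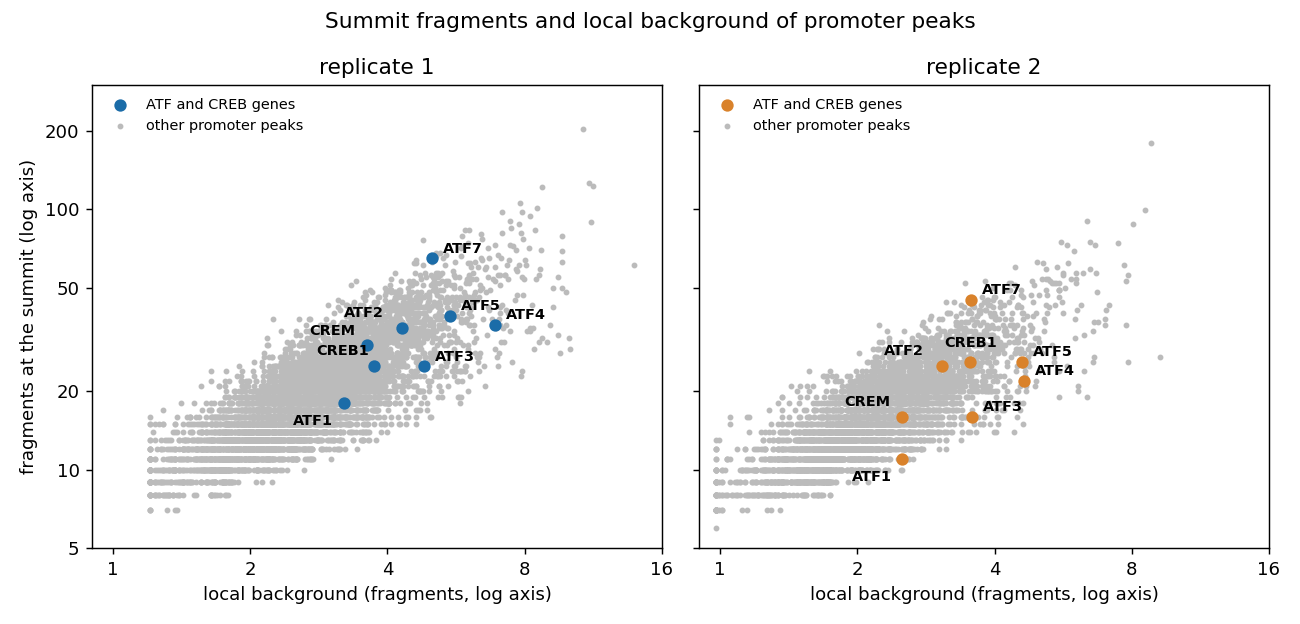
Fragments at the summit (y, log axis) against local background in fragments (x, log axis) for promoter peaks in replicate 1 (left) and replicate 2 (right), with the ATF and CREB genes coloured and all other promoter peaks grey; 7 and 8 grey peaks lie outside the axes. The members' backgrounds are all above the median of promoter peaks (2.67 and 2.18 fragments), and ATF7 has the most fragments of the members in each library; the ATF4 point of replicate 2 is its 5′ UTR peak.

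Of 6 related lists, the unfolded protein response genes had a share as high as that of the members, and the other 5 lists had lower shares. Of 16 relatives of the family, 5 had a promoter peak in both libraries (31.2%, against 20.8% of all genes), with a median lower fold of 4.96. They were led by CREB3L4 (5.81-fold in replicate 1 and 5.77-fold in replicate 2), ATF6B (5.04-fold and 5.09-fold), the closest relative of ATF6, CREB3 (5.29-fold and 4.96-fold) and CREBRF (4.51-fold and 5.25-fold). The last of the 5 was ATF7IP (4.02-fold and 4.55-fold). The immune factors BATF and BATF2, and ATF7IP2, had no assigned peak. CREB5, a further close relative of ATF2 and ATF7 and named after its values were seen, had one at its promoter in 1 library, replicate 2 (16 fragments, 5.27-fold).

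CREB3L2, also named after its values were seen, had a strong promoter peak in replicate 1 (9.95-fold, 49 fragments, rank 64 of 5415 genes) and no assigned peak in replicate 2. The replicate 2 list nevertheless held a peak there, overlapping by 659 bp with its summit 4 bp away (6.54-fold, 24 fragments). It lay at 11532773 to 11533507 on chromosome 18 and was assigned to the neighbour AKR1D1. Such a switch of the assigned gene removes a gene from the count of genes with peaks in both libraries.

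Cofactors and kinases of CREB were near the background, at 4 of 19 genes (21.1%, against 20.8%). PRKAR1A, the type I regulatory subunit of protein kinase A (5.86-fold in replicate 1 and 6.21-fold in replicate 2), CRTC2, a CREB coactivator (5.98-fold and 5.55-fold), SIK1, a kinase that inhibits such coactivators (4.77-fold and 3.98-fold), and the acetyltransferase EP300 (3.40-fold and 5.31-fold) had one in both. CAMK4, FHL5, known in mouse as a CREM coactivator of the testis, and PRKAR1B had no assigned peak. Of 10 spermatid genes named in mouse work on CREM, such as ACE, GAPDHS and LDHC, none had a promoter peak in either library, against 32.8% of all genes with one in replicate 1 and 24.9% in replicate 2, and 9 had no assigned peak of any class, against 49.3% of all genes.

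Genes of the unfolded protein response, to which ATF6 belongs, held promoter peaks in both libraries at 11 of 13 genes (84.6%, against 20.8%). The strongest were PDIA4, a disulfide isomerase (7.24-fold in replicate 1 and 8.45-fold in replicate 2), HSP90B1, the chaperone GRP94 (8.03-fold and 7.16-fold), and the co-chaperones DNAJB9 (9.04-fold and 6.80-fold) and DNAJC3 (5.72-fold and 5.77-fold). The median lower fold was 5.48. MBTPS2, one of the proteases that cut ATF6, had no assigned peak. MBTPS1, the other, carried a peak of 3.59-fold at its promoter in replicate 1 and none in replicate 2. With peaks above the median fold only, 8 of 13 remained, against 11.6% of all genes.

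Of 17 matched genes of the integrated stress response, the pathway of ATF4 and ATF5, 6 had a promoter peak in both libraries (35.3%, against 20.8%), with a median lower fold of 5.47. Kinases of eIF2 were 3 of these 6 genes: EIF2AK3 (PERK) had 9.39-fold in replicate 1 and 7.33-fold in replicate 2, EIF2AK4 (GCN2) 5.92-fold and 6.15-fold, and EIF2AK1 6.09-fold and 5.01-fold. EIF2B1, a subunit of the eIF2B exchange factor, had 5.95-fold and 6.35-fold. EIF2AK2, EIF2S1 and VLDLR had no assigned peak. Of 17 bZIP partners, 7 had a promoter peak in both (41.2%, against 20.8% of all genes). They were led by JUN (7.59-fold and 7.98-fold), the dimer partner of ATF2 and ATF7, and NFE2L1 (6.49-fold and 5.52-fold). MAFF (4.996-fold and 5.16-fold) and NFE2L2 (4.99-fold and 5.80-fold) came next. The count of bZIP partners stayed at 7 at equal list lengths and with 5′ UTR peaks added. It was 5 of 17 with any peak within 1 kb of either gene end, against 29.0% of all genes. CEBPD, FOSL1 and MAF had no assigned peak. No list was tested, since all lists were written with results of these data known.

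**Figure D5:**
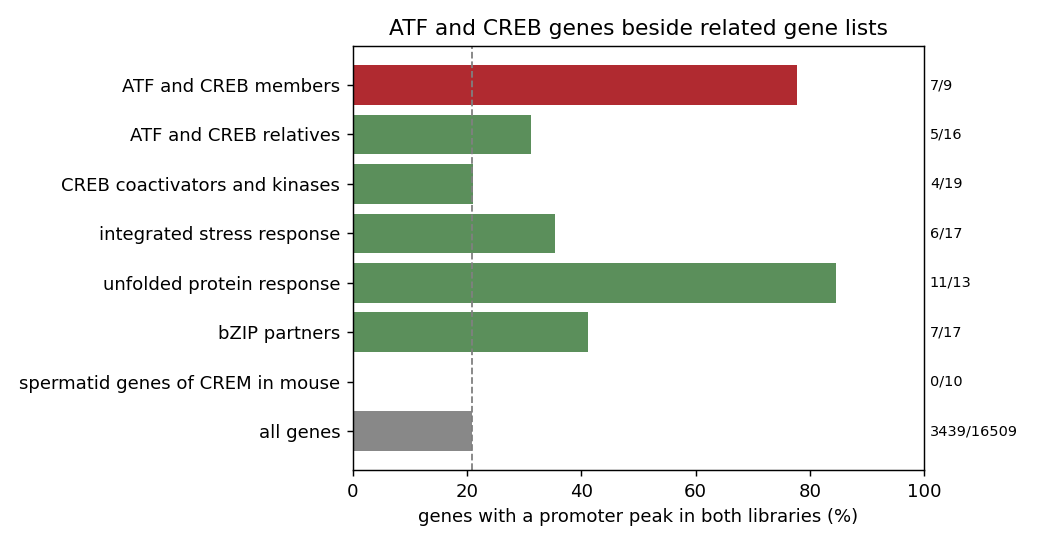
Share of genes with a promoter peak in both libraries (%, axis from 0 to 100), with the count of genes at the right, for the ATF and CREB genes (red), 6 related lists (green) and all genes (grey, dashed line). The ATF and CREB genes and the unfolded protein response list stand at 77.8% and 84.6%, against 20.8% of all genes, and the spermatid list is at 0.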

How the data were processed

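The submitters' processing notes name the build, Sscrofa11.1. Each library has its own peak list. The aligner, caller, its control and the annotation software of the authors were not given in the sources used here. Per the file headers, the deposited lists (10273 peaks in replicate 1, 7301 in replicate 2) give each peak a fold (a ratio over local background), a −log10 p-value, a −log10 q-value and a score, which was not used further. Sequencing depth is not stated. Fold and p-value of 100% of the peaks fitted whole fragments at the summit within a relative tolerance of 1e-05, with 1 added to fragments and background. This step was tested on data simulated from the same relation, a test that cannot show which relation the authors' caller used. Intervals cover counting error only. PCR copies are not told apart.

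Genes were the protein-coding symbols of the RefSeq table for Sscrofa11.1, and 92 of 94 list genes matched. Members and lists were chosen with earlier results of these data known. Named from each list were up to 4 genes with a promoter peak in both libraries by the lower fold and up to 3 with no peak, by alphabet. No tests, means or SDs were computed. Motif searches were not run. Alternatives left out a library, kept peaks above the median fold, equalised list lengths, or changed the promoter definition, overlap rule or background. Computations ran in Python 3.11.15 with scipy 1.17.1, pandas 2.3.3, numpy 2.4.6 and, for plots, matplotlib 3.10.9.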

Additional observations from a re-analysis of the deposited data

How the results depend on the processing

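The count of members with a promoter peak in both libraries was 7, and stayed at 7 or 8 with 1 library left out, with replicate 1 reduced to as many peaks as replicate 2, with the nearest edge within 1 kb, with 5′ UTR peaks added and, chosen after seeing the data, with any peak within 1 kb of either gene end, where ATF4 entered and ATF3 left. With peaks above the median fold only, it was 3, the count of overlapping promoter peaks 3 (main value 6), that of list genes 20 (33) and that of all genes 1912 (3439). The count of all genes ranged from 4115 without replicate 1 to 5415 without replicate 2. Of all genes, 19.2% counted at equal list lengths, 20.5% with the nearest edge within 1 kb and 29.0% with either gene end, against 20.8% in the main count. With summits within 200 bp, 4 members counted as shared (main value 6), and the share of all genes under this rule was not computed. The median promoter fold of the 7 members over both libraries was 5.73, and 13.4 over the lowest background of each library, a change that can only raise a fold. The start of a gene alone, without its other end, could not be used because the table gives no strand. Median promoter peaks held 19 fragments in replicate 1 and 16 in replicate 2, and counts of this size carry wide counting error. The promoter peaks of low fold held 18 and 11 fragments at ATF1 and 25 and 16 at ATF3, in the same order. No paired analysis was possible because there is 1 group and no test.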
